A study of Mus musculus with 16 samples.

Results

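Gdpd3, Mapk3 and Ypel3 are adjacent genes on mouse chromosome 7, and their mRNA was followed in myeloid-derived suppressor cells (MDSCs) of tumor-bearing mice with and without Nlrp3. These 3 genes, of 24421 gene symbols in the count tables, were chosen because Gdpd3 was higher in Nlrp3-/- cells of both MDSC subsets and because the other two flank it, so the genotype differences of these genes are given as a description, without a test. Monocytic MDSCs (M-MDSCs, sorted as CD11b-high Ly6C+ Ly6G- cells) and granulocytic MDSCs (G-MDSCs, CD11b-high Ly6C- Ly6G+) came from spleens of mice, 4 of them WT and 4 Nlrp3-/- (strain C57BL/6 in the labels), and each library held the RNA of 1 subset of 1 mouse, which gave 16 libraries in 4 groups of 4. All mice, controls included, carried a B16.F10 melanoma, a transplanted mouse tumor line. The study's methods give an age of 6 to 12 weeks for its mice unless stated otherwise and day 15 after tumor induction as their default day of analysis, and neither is given for these libraries in particular. By the study's methods the C57BL/6J mice it used were bought from a supplier and the Nlrp3-/- mice, on a C57BL/6 background, came from another source, so substrain or source and genotype cannot be told apart. The Nlrp3-/- allele carries an EGFP cassette in exon 2 in every cell of the mouse, so the sorted cells came from a host whose other cells lack Nlrp3 as well.

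Libraries were made with a 3′ end method (QuantSeq), in which a transcript is read near its poly(A) end, so the counts carry no information on splicing or on start site use. Total counts ranged from 2295967 to 6079866 per library. Nlrp3 itself, the sensor protein of an inflammasome that matures IL-1β and IL-18, fell by 6.06 on the log2 scale in Nlrp3-/- M-MDSCs (adjusted p = 9.67e-06, edgeR quasi-likelihood test) and fell by 5.06 in Nlrp3-/- G-MDSCs (adjusted p = 6.79e-08), so that the libraries matched their genotype labels. The summed level of 10 monocyte markers was 7321 to 11476 CPM (counts scaled to one library total) in M-MDSCs and 941 to 1569 CPM in G-MDSCs, and that of 12 neutrophil markers was 1498 to 8991 CPM in M-MDSCs and 116964 to 177469 CPM in G-MDSCs. The highest M-MDSC value for neutrophil markers came from WT replicate 2 alone, and the other 7 M-MDSC libraries reached at most 2600 CPM. Between genotypes, 2 of 11 tested neutrophil markers passed as higher and 0 as lower in Nlrp3-/- M-MDSCs. In Nlrp3-/- G-MDSCs 0 of 12 passed as higher and 1 as lower. Among monocyte markers, 1 of 10 tested passed as lower in Nlrp3-/- M-MDSCs and 1 of 8 as higher in Nlrp3-/- G-MDSCs. Of every gene tested, 10.6% and 16.4% passed. By genotype, the neutrophil markers summed to 116964 to 153033 CPM in WT and 142732 to 177469 CPM in Nlrp3-/- G-MDSCs, with overlap. Single neutrophil markers went either way in G-MDSCs. Cxcr2 was at 1852 to 3194 CPM in WT and 853 to 1543 CPM in Nlrp3-/- cells. S100a8 was at 51640.5 to 68670.7 CPM in WT and 67749.3 to 87930.5 CPM in Nlrp3-/- cells. The summed level of 8 markers of red pulp macrophages, resident phagocytes of the spleen, was higher in Nlrp3-/- cells of both subsets, at 150 to 161 CPM in WT and 256 to 386 CPM in Nlrp3-/- M-MDSCs, and at 165 to 283 CPM in WT and 460 to 647 CPM in Nlrp3-/- G-MDSCs. Of these 8 markers, 5 in M-MDSCs and 6 in G-MDSCs passed the test as higher, and none was at 0 in any group. Markers of NK cells moved the same way, from 28.7 to 63.5 CPM in WT against 87.7 to 130.3 CPM in Nlrp3-/- M-MDSCs, and from 21.0 to 42.4 CPM against 52.3 to 86.8 CPM in G-MDSCs, although 1 of 4 tested NK markers passed in M-MDSCs and 1 of 3 in G-MDSCs. Markers of eosinophils and basophils summed to 4.64 to 24.9 CPM in WT against 24.5 to 68.8 CPM in Nlrp3-/- M-MDSCs, and to 25.7 to 51.8 CPM against 57.8 to 65.3 CPM in G-MDSCs, with 1 of 2 tested markers higher in M-MDSCs and 0 of 2 in G-MDSCs. Dendritic cell markers summed to 209 to 264 CPM in WT against 266 to 309 CPM in Nlrp3-/- G-MDSCs, and 0 of 2 tested passed. In M-MDSCs they overlapped, at 41.8 to 128 CPM and 51.4 to 88.5 CPM, and 0 of 3 passed. The part of these cells in the results given here was not tested, and in sorted bulk samples more cells of a type and more RNA per cell cannot be told apart.

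Gdpd3 encodes an enzyme of the glycerophosphodiester phosphodiesterase family, which acts as a lysophospholipase D: it cleaves the head group from lysophospholipids and so releases lysophosphatidic acid, a signaling lipid sensed by G protein-coupled receptors. Mapk3 encodes ERK1, a kinase at the last step of the Ras, Raf and MEK cascade that carries growth factor and cytokine signals in myeloid cells. Ypel3 encodes a small zinc-binding protein of the Yippee family, known as a p53-inducible gene that restrains growth. They are grouped here by position.

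All 3 genes lie on the plus strand. In the mm10 build with GENCODE M21 gene models, Mapk3 spans chr7:126759601-126765819, Gdpd3 spans chr7:126766334-126775649 and Ypel3 spans chr7:126776955-126780514. The gap between the end of Mapk3 and the start of Gdpd3 is 514 bases, and the gap between the end of Gdpd3 and the start of Ypel3 is 1305 bases. The annotation holds 0 transcripts that join neighbors. An antisense gene on the minus strand, Gm9967 (chr7:126768082-126776818), overlaps Gdpd3 over 7568 bases, and since the authors counted reads by strand, its reads would not be assigned to Gdpd3. The longest coding transcript has 9 exons in Mapk3, 10 in Gdpd3 and 5 in Ypel3.

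The start sites of Gdpd3 and Ypel3 are shown because these genes sit head to tail and differ in how far their levels moved with genotype. Each line gives 300 bases from RefSeq on GRCm38.p6 (the assembly that mm10 is built from), plus strand, 5′ to 3′, from 250 bases before to 50 bases after the start that RefSeq annotates, at chr7:126766164-126766463 for Gdpd3 and chr7:126776713-126777012 for Ypel3. Capitals mark every CG dinucleotide.
Gdpd3: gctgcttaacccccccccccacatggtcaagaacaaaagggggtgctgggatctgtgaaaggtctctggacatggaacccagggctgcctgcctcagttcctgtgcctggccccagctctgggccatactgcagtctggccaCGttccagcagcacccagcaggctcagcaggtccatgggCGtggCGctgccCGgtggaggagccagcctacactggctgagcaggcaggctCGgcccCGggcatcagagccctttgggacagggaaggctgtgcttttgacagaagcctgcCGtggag
Ypel3: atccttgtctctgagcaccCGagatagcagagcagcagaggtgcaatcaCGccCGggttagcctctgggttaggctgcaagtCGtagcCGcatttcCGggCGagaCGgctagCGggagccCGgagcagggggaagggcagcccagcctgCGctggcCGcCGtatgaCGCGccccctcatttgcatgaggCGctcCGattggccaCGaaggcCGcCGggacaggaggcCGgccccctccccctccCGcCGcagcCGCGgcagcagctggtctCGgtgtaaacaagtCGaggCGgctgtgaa
The Gdpd3 window holds 7 CG dinucleotides, which is also the median of 32851 mouse promoter windows of the same length, and 64.3% of its bases are G or C. The Ypel3 window holds 28, more than 85.8% of promoter windows, with a GC content of 67.7%. CG occurs at least once in 94.6% of the windows. Of 3 further motifs searched on both strands, TATAAA (in 13.6% of all windows) was in neither, GGGCGG (35.7%) was in neither, and CCAAT (37.4%) occurred once, in the Ypel3 window. GGGCGG itself contains a CG, and a match or its absence is a description of the sequence only.

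In M-MDSCs, Gdpd3 was at 45.2, 37.7, 44.4 and 51.7 CPM in WT replicates 1 to 4 and at 348, 317, 371 and 346 CPM in Nlrp3-/- replicates 1 to 4. The lowest Nlrp3-/- library was therefore far above the highest WT library, and the 4 Nlrp3-/- libraries were close to each other, with a coefficient of variation of 6.47%. The means were 44.7 ± 5.75 CPM (SD, n = 4) and 346 ± 22.4 CPM (SD, n = 4), and the fitted log2 fold change was 2.98 (SE 0.16), a 7.89-fold difference. These values rest on 151 to 268 reads per WT library and 1777 to 2995 reads per Nlrp3-/- library.

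In G-MDSCs the difference in Gdpd3 was larger. The level was 77.1, 48.4, 52.6 and 61.9 CPM in WT replicates 1 to 4 and 1934, 1781, 1447 and 1979 CPM in Nlrp3-/- replicates 1 to 4. The means were 60.0 ± 12.7 CPM (SD, n = 4) and 1785 ± 241 CPM (SD, n = 4), from 143 to 231 and from 6985 to 8372 reads per library. The fitted log2 fold change was 4.81 (SE 0.20), a 28.1-fold difference, and the groups did not overlap. CPM values were scaled over all 16 libraries and fold changes were fitted on the 8 libraries of a subset, so a ratio of the printed means differs slightly from the fitted fold.

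**Figure D1:**
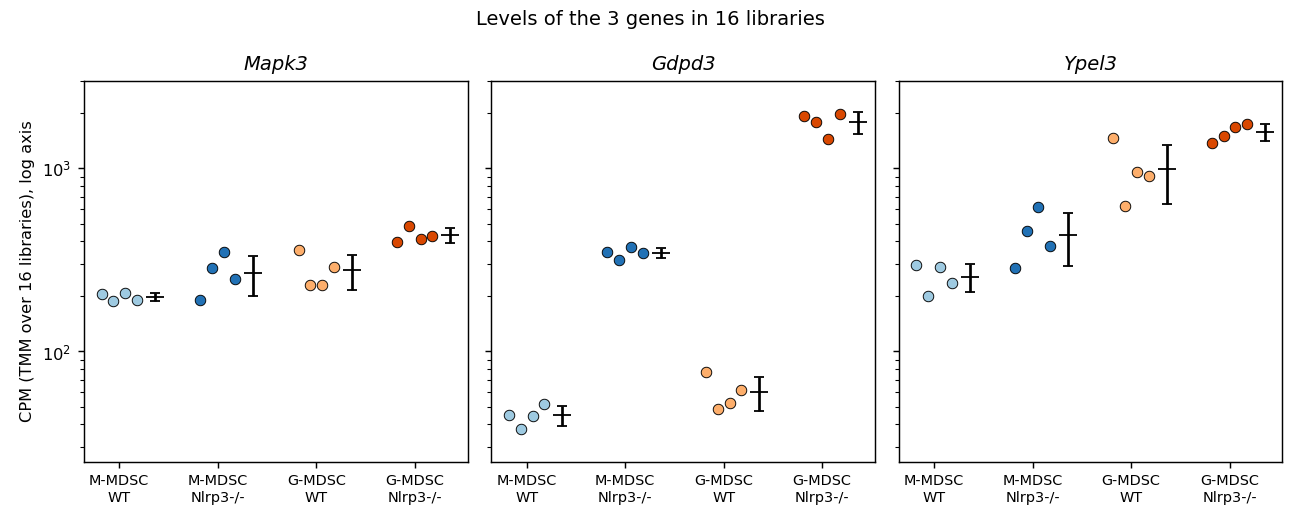
Level of Mapk3, Gdpd3 and Ypel3 in each of the 16 libraries, in CPM on a log axis, with 1 point per library in order of replicate number and the mean ± SD (n = 4) to the right of each group. Gdpd3 lies between 37.7 and 77.1 CPM in the 8 WT libraries, between 317 and 371 CPM in Nlrp3-/- M-MDSCs and between 1447 and 1979 CPM in Nlrp3-/- G-MDSCs, while the Mapk3 and Ypel3 groups lie much closer together.

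Against all genes, Gdpd3 stood at the top of the list in G-MDSCs, where its log2 fold change was the highest of 9273 tested genes. The next gene among those past both thresholds (false discovery rate under 0.05 and fold above 1.5) was the pseudogene Tmem181b-ps, at 2.92 from low levels. In M-MDSCs Gdpd3 ranked 4 of 9986 by log2 fold change and 3 among the genes past both thresholds, behind Adgrg5, an adhesion G protein-coupled receptor gene, at 4.07, and Rem1, a small GTPase gene, at 3.03. Both of these rested on fewer counts, with means of 80.7 CPM and 23.8 CPM in Nlrp3-/- M-MDSCs against 346 CPM for Gdpd3. In Nlrp3-/- G-MDSCs Gdpd3 took up on average 0.137% of all counts, against 0.00450% in WT G-MDSCs.

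Mapk3, which ends just before Gdpd3, moved far less. In M-MDSCs it was at 205, 189, 208 and 191 CPM in WT replicates 1 to 4 and at 190, 285, 348 and 248 CPM in Nlrp3-/- replicates 1 to 4. Nlrp3-/- replicate 1 lay within the WT range and the other 3 libraries lay above it. The means were 198 ± 9.94 CPM and 268 ± 66.1 CPM (SD, n = 4 each), with a fitted log2 fold change of 0.45 (SE 0.17).

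In G-MDSCs Mapk3 was at 359, 232, 231 and 290 CPM in WT and at 397, 487, 412 and 429 CPM in Nlrp3-/- replicates 1 to 4, so the groups did not overlap, although the highest WT library came close to the lowest Nlrp3-/- library. The means were 278 ± 60.4 CPM and 431 ± 39.5 CPM (SD, n = 4 each), and the log2 fold change was 0.55 (SE 0.17).

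Ypel3, which starts just after Gdpd3, varied more between the mice of a group than the other two in all groups but Nlrp3-/- G-MDSCs, with coefficients of variation up to 35.3%. In M-MDSCs it was at 299, 201, 289 and 237 CPM in WT and at 286, 453, 612 and 378 CPM in Nlrp3-/- replicates 1 to 4. Here too Nlrp3-/- replicate 1 lay within the WT range. The Nlrp3-/- libraries had the same order for Ypel3 as for Mapk3 (replicate 1 lowest, then 4, 2 and 3), whereas for Gdpd3 replicate 2 was the lowest. The means were 256 ± 45.8 CPM and 432 ± 138 CPM (SD, n = 4 each), with a log2 fold change of 0.77 (SE 0.22).

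In G-MDSCs Ypel3 was at 1460, 620, 959 and 911 CPM in WT and at 1373, 1510, 1685 and 1749 CPM in Nlrp3-/- replicates 1 to 4. WT replicate 1 exceeded the lowest Nlrp3-/- library and the other 3 WT libraries were below all Nlrp3-/- libraries. The means were 988 ± 349 CPM and 1579 ± 171 CPM (SD, n = 4 each), and the log2 fold change was 0.60 (SE 0.21).

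Of the 3 genes, 2 (Gdpd3 and Ypel3) were past both thresholds as higher in Nlrp3-/- M-MDSCs, where 10.6% of all tested genes passed (3.51% as higher and 7.10% as lower), and 1 (Gdpd3) in Nlrp3-/- G-MDSCs, where 16.4% passed (4.70% as higher and 11.7% as lower). The groups did not overlap for 1 of the 3 genes in M-MDSCs, as for 19.3% of the tested genes, and for 2 of the 3 in G-MDSCs, as for 24.4%. Nothing is read from these counts, since the genes were chosen on this contrast. Over every gene tested, the median was 0.07 in M-MDSCs and 0.03 in G-MDSCs on the log2 scale.

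The genotype values of all 3 genes moved toward 0 when GC content and length were corrected for together. The GC content of the transcript was 57.6% for Mapk3, 53.4% for Gdpd3 and 59.8% for Ypel3, against a median of 49.9% over the genes tested in M-MDSCs. The transcripts are also short: 21.1% of these genes were shorter than Mapk3, 8.07% than Gdpd3 and 16.7% than Ypel3. The parts of GC content and of length were not tested apart. After a correction for GC content and length the log2 fold change of Mapk3 was 0.13 in M-MDSCs and 0.20 in G-MDSCs, and that of Ypel3 was 0.41 and 0.19. That of Gdpd3 was 2.78 and 4.52. Without M-MDSC WT replicate 2, the library with the high neutrophil markers, the M-MDSC values were 0.43 for Mapk3, 2.91 for Gdpd3 and 0.67 for Ypel3. Leaving out any 1 library gave a range of 2.91 to 3.05 in M-MDSCs and 4.73 to 4.94 in G-MDSCs for Gdpd3.

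**Figure D2:**
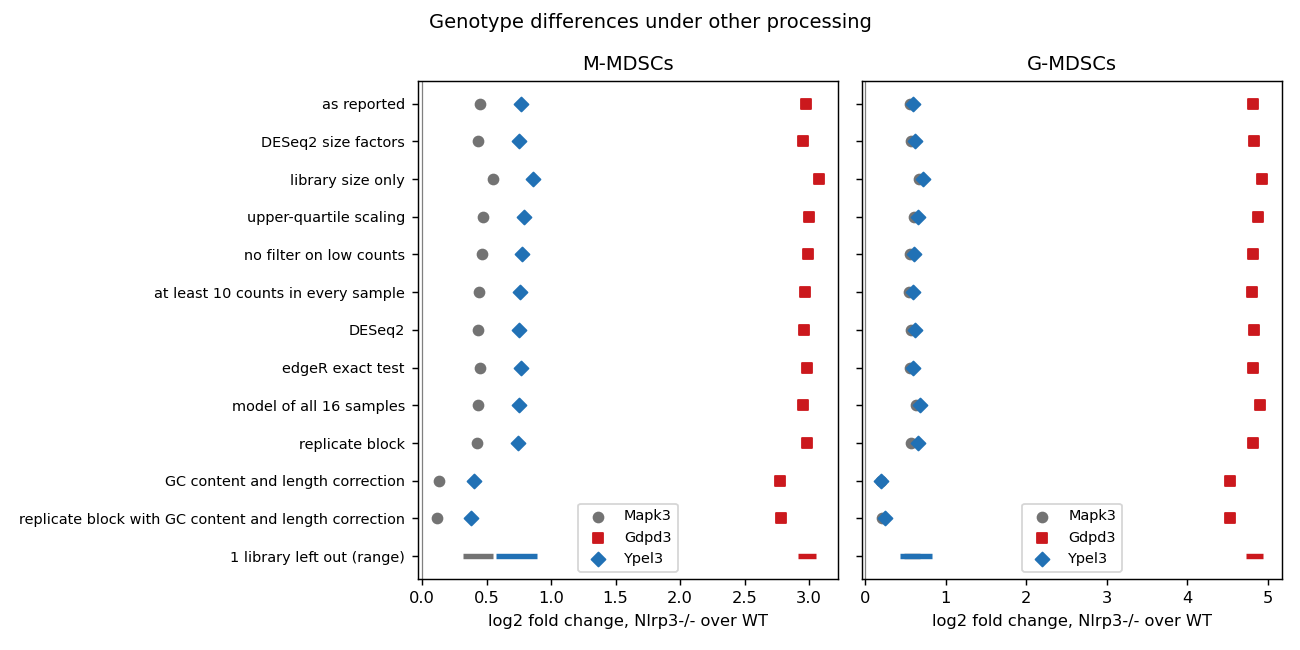
Fitted log2 fold change of Nlrp3-/- over WT for Mapk3 (grey circles), Gdpd3 (red squares) and Ypel3 (blue diamonds) under each processing, with bars in the last row for the range over fits that leave out 1 library. Gdpd3 lies between 2.78 and 3.08 in M-MDSCs and between 4.52 and 4.94 in G-MDSCs. All 3 genes shift toward 0 with the correction for GC content and length.

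Ratios of counts within a library do not depend on how libraries are scaled. They are compared here across groups and not read as relative transcript numbers of the 2 genes. The ratio of Gdpd3 to Mapk3 was 0.226 ± 0.0314 in WT M-MDSCs and 0.216 ± 0.00822 in WT G-MDSCs (SD, n = 4 each), and these groups overlapped. In Nlrp3-/- cells it was 1.35 ± 0.351 in M-MDSCs and 4.16 ± 0.677 in G-MDSCs, with every Nlrp3-/- library above every WT library and every Nlrp3-/- G-MDSC library above every Nlrp3-/- M-MDSC library.

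The ratio of Gdpd3 to Ypel3 was 0.178 ± 0.0318 in WT M-MDSCs, 0.860 ± 0.272 in Nlrp3-/- M-MDSCs, 0.0634 ± 0.0118 in WT G-MDSCs and 1.14 ± 0.226 in Nlrp3-/- G-MDSCs. In WT cells this ratio was lower in G-MDSCs than in M-MDSCs without overlap, whereas in Nlrp3-/- cells the subsets overlapped. The ratio of the flanking genes to each other stayed within a narrower range. Ypel3 to Mapk3 was 1.29 ± 0.173 in M-MDSCs of WT mice and 1.59 ± 0.116 in those of Nlrp3-/- mice, without overlap. In G-MDSCs it was 3.51 ± 0.724 for WT and 3.68 ± 0.488 for Nlrp3-/- mice, and these overlapped. It was higher in G-MDSCs than in M-MDSCs in both genotypes, without overlap.

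**Figure D3:**
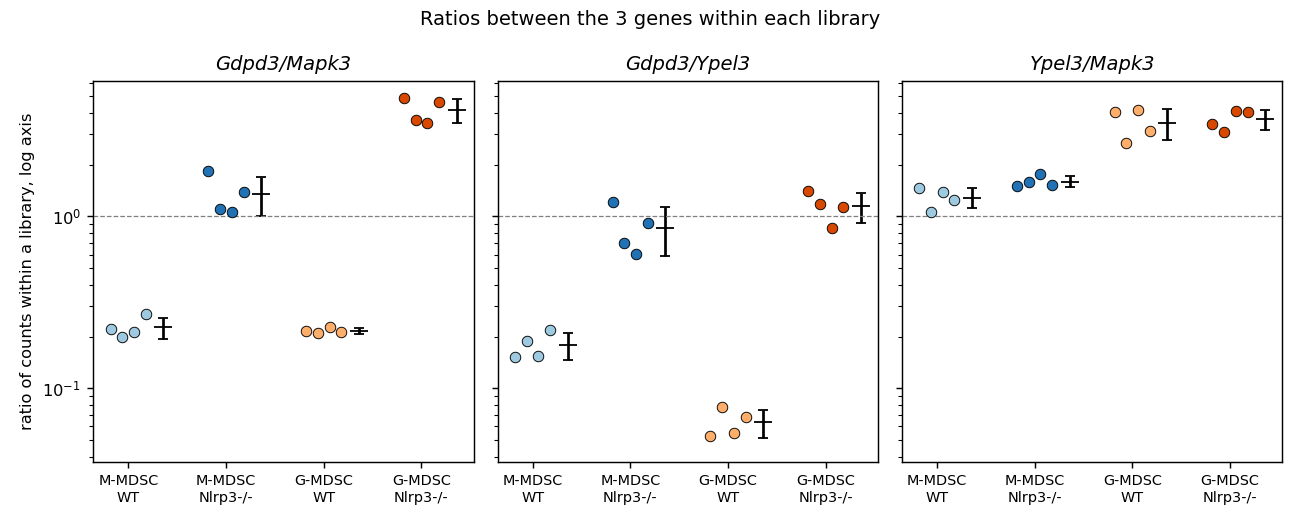
Ratio of the counts of 2 genes within each library on a log axis, with 1 point per library, the mean ± SD (n = 4) to the right of each group and a dashed line at 1. The ratio of Gdpd3 to Mapk3 is 0.200 to 0.272 in all 8 WT libraries and 1.07 to 4.87 in the 8 Nlrp3-/- libraries.

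The comparison of the subsets within a genotype was not itself used to choose the genes and was tested. For Gdpd3 no p is given in either genotype, since its WT and Nlrp3-/- levels in both subsets chose it. The counts of G-MDSCs and M-MDSCs differed widely: 53.3% of 9739 tested genes passed both thresholds in WT mice and 51.0% of 10071 in Nlrp3-/- mice, with 26.3% and 23.7% higher in G-MDSCs. Ypel3 was higher in G-MDSCs in both genotypes, with a log2 difference of 1.95 (SE 0.25, adjusted p = 4.15e-05, edgeR quasi-likelihood test) in WT and 1.76 (SE 0.20, adjusted p = 4.92e-06) in Nlrp3-/- mice. Within each mouse, the Ypel3 level in G-MDSCs was 3.09 to 4.89 times that in M-MDSCs in WT and 2.75 to 4.80 times in Nlrp3-/- mice.

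Gdpd3 differed between the subsets by genotype. In WT mice its log2 difference, G-MDSCs over M-MDSCs, was 0.43 (SE 0.19), under the 1.5-fold minimum. The sign turned to -0.32 when libraries were scaled by total counts alone. With the replicate number as a block, which pairs the subsets of an animal, the difference was 0.41, still under the 1.5-fold minimum. The groups overlapped, with 48.4 to 77.1 CPM in G-MDSCs and 37.7 to 51.7 CPM in M-MDSCs. In Nlrp3-/- mice Gdpd3 was higher in G-MDSCs by 2.25 on the log2 scale (SE 0.16), and by 1.53 with scaling by total counts. Within each mouse, the level in G-MDSCs was 1.18 to 1.71 times that in M-MDSCs in the 4 WT mice and 3.90 to 5.71 times in the 4 Nlrp3-/- mice.

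For Mapk3 the log2 difference, G-MDSCs over M-MDSCs, was 0.49 in WT (SE 0.17, adjusted p = 0.0264, edgeR quasi-likelihood test) and 0.58 in Nlrp3-/- mice (SE 0.17, adjusted p = 0.0120), in both cases under the 1.5-fold minimum, and the sign turned to -0.26 and -0.14 with scaling by total counts alone. With that block the difference in Nlrp3-/- mice was 0.60 (adjusted p = 0.0019) and passed both thresholds. In WT mice the adjusted p was 0.0520 to 0.0951 without any 1 of 6 libraries (M-MDSC WT replicates 1 to 4 and G-MDSC WT replicates 1 and 4), with differences of 0.35 to 0.48. Scaling by total counts shifted the median log2 difference over every gene tested from -0.05 to -0.79 in WT and from -0.12 to -0.83 in Nlrp3-/- mice. Relative to the median of all genes, the differences of Mapk3, Gdpd3 and Ypel3 were 0.54, 0.48 and 2.00 in WT and 0.70, 2.37 and 1.88 in Nlrp3-/- mice, and with scaling by total counts they were 0.53, 0.47 and 1.98 in WT and 0.70, 2.37 and 1.88 in Nlrp3-/- mice.

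**Figure D4:**
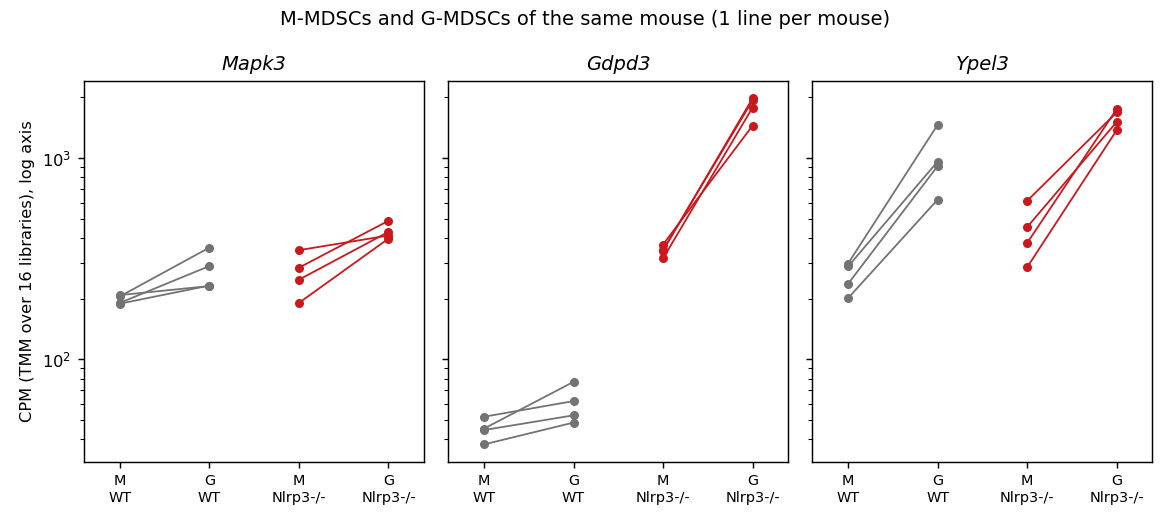
Level of the 3 genes in M-MDSCs and G-MDSCs of the same mouse, in CPM on a log axis, with 1 line per mouse (grey for 4 WT, red for 4 Nlrp3-/-). The Gdpd3 lines rise from 37.7 to 51.7 CPM in M-MDSCs to 48.4 to 77.1 CPM in G-MDSCs in WT mice and from 317 to 371 CPM to 1447 to 1979 CPM in Nlrp3-/- mice, and the Ypel3 lines rise in every mouse.

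The genotype effect on Gdpd3 was 1.94 higher on the log2 scale in G-MDSCs than in M-MDSCs (SE 0.24) in a model of all 16 libraries. This is given without a p since both effects chose the gene. For Mapk3 the difference of effects was 0.20 (SE 0.25) and for Ypel3 -0.08 (SE 0.34), each smaller than its SE. Leaving out 1 library gave -0.09 to 0.35 for Mapk3, where the sign turned without M-MDSC Nlrp3-/- replicate 1. For Ypel3 it gave -0.39 to 0.17, where the sign turned without M-MDSC Nlrp3-/- replicate 3 and without G-MDSC WT replicate 1. With the mouse as a block the difference of effects of Ypel3 was 0.02. For Gdpd3 the range was 1.78 to 2.08.

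In order of level, Gdpd3 ran from WT M-MDSCs and WT G-MDSCs, which overlapped, to Nlrp3-/- M-MDSCs and then Nlrp3-/- G-MDSCs, both apart from all other groups. Mapk3 ran from WT M-MDSCs to Nlrp3-/- M-MDSCs, WT G-MDSCs and Nlrp3-/- G-MDSCs, and the first 3 were neighbors that overlapped except that WT M-MDSCs (189 to 208 CPM) lay below WT G-MDSCs (231 to 359 CPM), while Nlrp3-/- G-MDSCs (397 to 487 CPM) lay above all of them. For Ypel3 the order was WT M-MDSCs, Nlrp3-/- M-MDSCs, WT G-MDSCs and Nlrp3-/- G-MDSCs, and the genotypes overlapped within each subset. Within a genotype the subsets did not overlap. This held, with G-MDSCs higher, for 25.5% of the genes tested in WT and 26.2% in Nlrp3-/- mice. Across genotypes the highest Nlrp3-/- M-MDSC library (612 CPM) lay just under the lowest WT G-MDSC library (620 CPM). With scaling by total counts alone the means of Mapk3 in this order of groups were 249, 365, 208 and 332 CPM, so that WT G-MDSCs became the lowest group, and those of Gdpd3 put WT G-MDSCs (45.0 CPM) below WT M-MDSCs (56.4 CPM). The means of Ypel3 kept their order, but Nlrp3-/- M-MDSCs (587 ± 164 CPM) and WT G-MDSCs (740 ± 252 CPM) were close for their SD.

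The wider locus was followed to see whether other genes near Gdpd3 differed with genotype. Of 85 annotated genes within 500 kb of Gdpd3, 55 were in the count tables. Without Mapk3 and Ypel3, 41 were tested in M-MDSCs, with 1 higher and 1 lower in Nlrp3-/- cells, and 38 in G-MDSCs, with 5 higher and 0 lower. Of every gene tested, 3.51% were called higher and 7.10% lower in M-MDSCs, and 4.70% and 11.7% in G-MDSCs. The median of the window was 0.22 and 0.28 on the log2 scale, beside 0.07 and 0.03 for every gene tested. Gdpd3 had the largest log2 fold change of the window in both subsets.

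The gene that follows Ypel3 is Tbx6, a T-box transcription factor gene of mesoderm formation, 5.83 kb from Gdpd3. In M-MDSCs it was at 2.23, 2.39, 2.14 and 0.69 CPM in WT and at 5.00, 6.14, 6.68 and 5.52 CPM in Nlrp3-/- replicates 1 to 4. The Nlrp3-/- libraries were all higher, at low levels of 2 to 17 reads per WT library and 32 to 43 reads per Nlrp3-/- library, and the log2 fold change was 1.59 (SE 0.38, adjusted p = 0.0219, edgeR quasi-likelihood test). With the correction for GC content and length it was 1.26 (adjusted p = 0.0617). The adjusted p also missed the threshold without WT replicate 3 (0.0508), without WT replicate 4 (0.0518) and without Nlrp3-/- replicate 4 (0.0614), with log2 fold changes of 1.64, 1.38 and 1.59. In G-MDSCs Tbx6 was at 28.3 CPM in WT on average, and its change of 0.40 did not pass (adjusted p = 0.255).

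Farther on the same side, Aldoa, the glycolytic enzyme aldolase A, lies 19.6 kb away. It was higher in Nlrp3-/- G-MDSCs, at 785, 887, 910 and 905 CPM against 615, 446, 509 and 559 CPM in WT replicates 1 to 4, with no overlap and a log2 fold change of 0.63 (SE 0.15, adjusted p = 0.0104, edgeR quasi-likelihood test), which fell under the 1.5-fold minimum without G-MDSC WT replicate 2 (0.56). In M-MDSCs its log2 fold change was 0.39 (adjusted p = 0.225). The other nearby tested genes on that side did not pass in either subset where they were tested. The phosphatase subunit gene Ppp4c, tested in M-MDSCs only, had a value of -0.28, Ino80e 0.36 and 0.31, Hirip3 -0.24 and -0.11 and the kinase gene Taok2 0.52 and 0.43 in M-MDSCs and G-MDSCs.

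On the side of Mapk3, none of the nearest tested genes passed. Coro1a, which encodes the actin regulator coronin 1A and is 58.5 kb away, had a log2 fold change of -0.21 in M-MDSCs and 0.56 in G-MDSCs, with Nlrp3-/- libraries spread from 148 to 584 CPM in M-MDSCs. Bola2 was at 0.22 and 0.47, Slx1b at -1.22 and -0.87 and Ccdc101 at 0.08 and 0.68, and Sult1a1, tested in M-MDSCs only, was at 0.61. The next gene tested in G-MDSCs, Apobr, was at -0.17 there. The remaining genes past both thresholds lay 111 to 481 kb away. They were Tmem219 at 0.77, AI467606 at 0.72, Zfp771 at 1.35 and Dctpp1 at 0.80 in G-MDSCs, with adjusted p from 0.0181 to 0.0313, and, as the one lower gene, the translation factor subunit gene Eif3c at -0.62 in M-MDSCs (adjusted p = 0.0211). Tmem219 was at 0.56 in M-MDSCs (adjusted p = 0.0351, edgeR quasi-likelihood test), just under the 1.5-fold minimum. Of the 8 fits that leave out 1 library, 4 lost the call of Tmem219, 2 that of AI467606, 5 each those of Zfp771 and Dctpp1 and 4 that of Eif3c. With the correction for GC content and length 0 genes of the window passed in M-MDSCs and 1 in G-MDSCs, and none of the 7 genes named here as past both thresholds passed in the subset given.

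**Figure D5:**
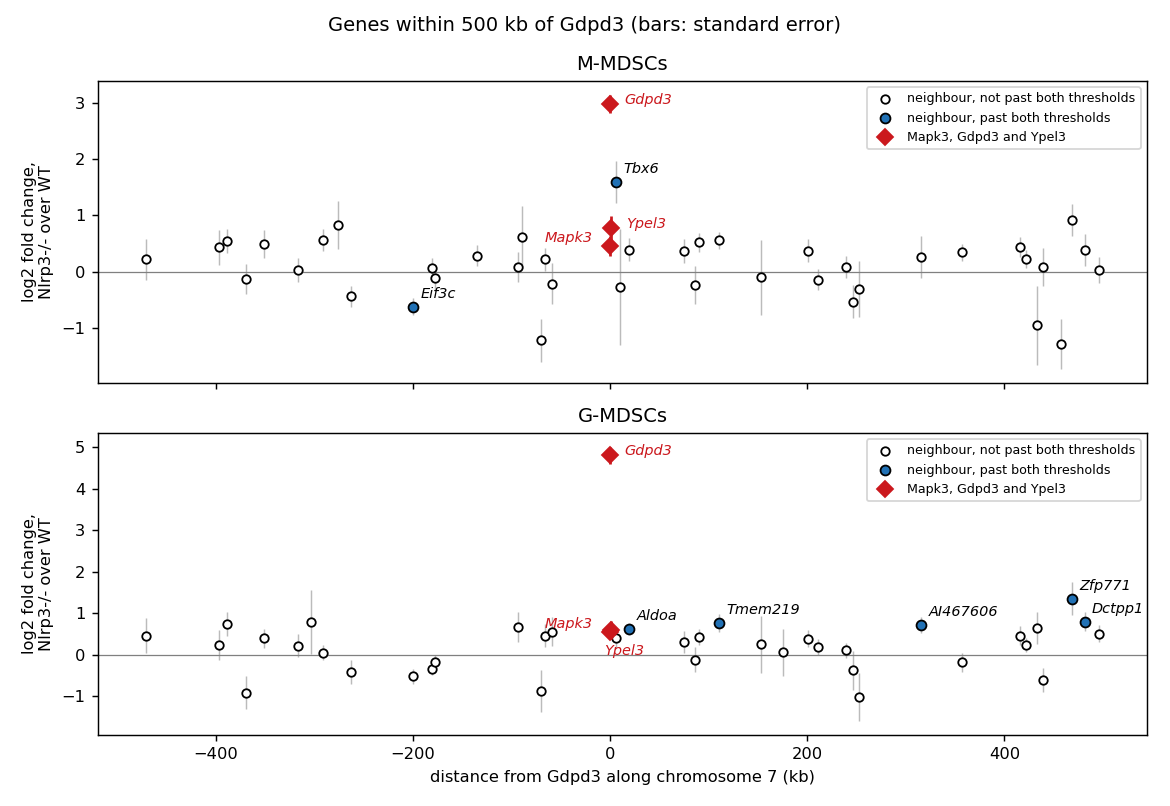
Log2 fold change of Nlrp3-/- over WT (points, bars for the standard error) of the tested genes within 500 kb of Gdpd3, against the distance from Gdpd3 in kb, with M-MDSCs above and G-MDSCs below. Red diamonds are Mapk3, Gdpd3 and Ypel3, and filled circles are neighbors past both thresholds. Gdpd3 stands alone at 2.98 and 4.81, and the next highest genes are Tbx6 at 1.59 in M-MDSCs and Zfp771 at 1.35 in G-MDSCs.

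No relative of Gdpd3 passed the test. Of the 7 genes of the glycerophosphodiester phosphodiesterase family, 3 others were tested in M-MDSCs and 2 in G-MDSCs, and 0 passed. In G-MDSCs 1 passed in 2 of 20 alternatives, each a fit that leaves out 1 library. Gde1, a membrane-bound phosphodiesterase of the family, was at 35.0 and 39.9 CPM in WT and Nlrp3-/- M-MDSCs and at 31.4 and 30.4 CPM in G-MDSCs. Gpcpd1, which hydrolyzes glycerophosphocholine, had log2 fold changes of -0.38 in M-MDSCs (adjusted p = 0.160, edgeR quasi-likelihood test) and -0.49 in G-MDSCs (adjusted p = 0.0641). Gdpd5 was tested in M-MDSCs only, at 0.97 and 2.18 CPM (adjusted p = 0.213). These differences stand beside 2.98 and 4.81 for Gdpd3.

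Among genes that make, sense or break down lysophospholipids and N-acylethanolamines, the lipids that Gdpd3 acts on or releases, 28 were tested in M-MDSCs with 1 higher and 1 lower, and 25 in G-MDSCs with 2 higher and 1 lower, beside 10.6% and 16.4% of every gene tested that were called in either direction. The median log2 fold change was 0.25 and 0.14, beside 0.07 and 0.03 for all tested genes. Lpar6, a receptor for lysophosphatidic acid, was lower in both subsets, by a log2 fold change of -0.62 in M-MDSCs (269 ± 60.5 to 172 ± 19.3 CPM, SD, n = 4, adjusted p = 0.0467, edgeR quasi-likelihood test) and -0.72 in G-MDSCs (37.9 ± 3.25 to 24.4 ± 6.61 CPM, adjusted p = 0.0401). With the correction for GC content and length these were -0.25 for Lpar6 in M-MDSCs and -0.16 in G-MDSCs and did not pass, and the call was lost in 6 and 7 of the 8 fits that leave out 1 library. Pla2g15, a lysosomal phospholipase, was higher in Nlrp3-/- G-MDSCs by 1.19 (12.2 ± 4.43 to 29.7 ± 4.72 CPM, adjusted p = 0.00995), and Abhd12, which hydrolyzes lysophosphatidylserine, by 1.08 (10.0 ± 2.65 to 22.6 ± 3.76 CPM, adjusted p = 0.0163). With the same correction Pla2g15 passed and Abhd12, at 0.80, did not (adjusted p = 0.0794). In M-MDSCs the higher gene was Agpat6, an acyltransferase gene of glycerolipid synthesis, by 0.68 (50.1 ± 4.52 to 79.6 ± 21.7 CPM, adjusted p = 0.0425), a call that was lost in 7 of the 8 fits that leave out 1 library.

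For Mapk3, 51 other genes of the Ras-ERK cascade were tested in each subset. In M-MDSCs 2 were higher and 4 lower, and in G-MDSCs 2 were higher and 9 lower, with medians of -0.05 and 0.11. In all, 6 of 51 and 11 of 51 were called, beside 10.6% and 16.4% of every gene tested. The lower genes in M-MDSCs were led by Sos1, the exchange factor that loads Ras with GTP, at -1.35 (31.1 ± 3.24 to 11.8 ± 3.58 CPM, adjusted p = 0.00670, edgeR quasi-likelihood test), and Ptpn11, the phosphatase SHP2, at -0.88 (adjusted p = 0.0103), followed by the kinase gene Braf at -0.73 (adjusted p = 0.0324). Rras, a Ras-like GTPase gene, was higher at 0.66 (adjusted p = 0.0184). The calls of Braf and Rras in M-MDSCs were lost in 4 and 3 of the 8 fits that leave out 1 library.

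In G-MDSCs the genes of the cascade with small p included Braf at -1.07 (207 ± 38.4 to 104 ± 10.4 CPM, adjusted p = 0.000563, edgeR quasi-likelihood test), the scaffold gene Shoc2 at -1.41 (adjusted p = 0.000751) and the immediate early gene Ier2 at 0.91 (407 ± 83.7 to 811 ± 128 CPM, adjusted p = 0.00390). With the correction for GC content and length 2 genes of the cascade passed in M-MDSCs and 3 in G-MDSCs. Of the genes named, Sos1 and Ptpn11 passed in M-MDSCs, and Shoc2 and Ptpn11 in G-MDSCs. Ptpn11 in G-MDSCs was at -0.93 before the correction (adjusted p = 0.00788) and at -0.80 with it (adjusted p = 0.0270).

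For Ypel3, the 2 tested relatives did not pass in either subset. Ypel5 was at 109 and 137 CPM in WT and Nlrp3-/- M-MDSCs (log2 fold change 0.36, adjusted p = 0.143, edgeR quasi-likelihood test) and at 291 and 339 CPM in G-MDSCs (0.13, adjusted p = 0.613). Ypel2 was at -0.09 in M-MDSCs (adjusted p = 0.855) and 0.09 in G-MDSCs (adjusted p = 0.922).

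Of other genes known to be induced by p53, 23 were tested in M-MDSCs with 1 higher and 0 lower, and 24 in G-MDSCs with 5 higher and 3 lower, and the medians were 0.01 and -0.08. Of every gene tested, 10.6% and 16.4% were called. Bbc3, which encodes the proapoptotic protein PUMA, was higher in both subsets, by 0.87 in M-MDSCs (40.1 ± 6.09 to 72.1 ± 10.5 CPM, adjusted p = 0.00832, edgeR quasi-likelihood test) and 1.00 in G-MDSCs (33.7 ± 6.13 to 71.3 ± 11.3 CPM, adjusted p = 0.00419), and did not pass once corrected for GC content and length (0.47 in M-MDSCs, 0.58 in G-MDSCs). Cdkn1a, the cell cycle inhibitor p21, was at -0.57 in M-MDSCs (adjusted p = 0.0467), just under the 1.5-fold minimum. It was lower in Nlrp3-/- G-MDSCs by a log2 fold change of -1.05 (54.4 ± 17.3 to 28.1 ± 6.74 CPM, adjusted p = 0.0142), and the stress gene Sesn2 by -3.53 (39.8 ± 12.8 to 3.57 ± 2.48 CPM, adjusted p = 0.000269). Gdf15, a secreted stress cytokine, was higher by 2.05, at 2.84 ± 1.68 and 12.4 ± 8.56 CPM (adjusted p = 0.0192), and once corrected for GC content and length it did not pass (1.64, adjusted p = 0.0607), nor without G-MDSC WT replicate 4 or Nlrp3-/- replicate 4.

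The genes whose pattern over the 16 libraries was most like that of each gene were found by the root mean square difference of standardized log2 CPM, where 0 would be an identical pattern, among 10695 genes. For Gdpd3 they were Ech1, a fatty acid oxidation enzyme, at 0.319, Sh3bgrl3 at 0.363, the deacetylase gene Hdac5 at 0.385, the RNA editing enzyme gene Adar at 0.385 and Nrros at 0.389. These follow the order of Gdpd3 levels with far smaller steps: Hdac5, for example, was at 64.7, 98.6, 77.5 and 155 CPM and Ech1 at 29.9, 47.1, 34.4 and 69.3 CPM in WT M-MDSCs, Nlrp3-/- M-MDSCs, WT G-MDSCs and Nlrp3-/- G-MDSCs. Mapk3 ranked 153 and Ypel3 870 in likeness to Gdpd3.

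For Mapk3 the nearest genes were Rela, the p65 subunit of NF-κB, at 0.186, Tmem134 at 0.282, Ccnd3 (cyclin D3) at 0.292, Prune at 0.313 and Zfand2b at 0.322. Rela was at 114 ± 11.1, 192 ± 47.4, 195 ± 55.7 and 363 ± 26.8 CPM in the same order of groups (SD, n = 4 each). Ypel3 had closer matches, with Mboat7, a lysophospholipid acyltransferase, at 0.139, Vps28 at 0.160, Psd4 at 0.162 and Fam193b and Gcc1 both at 0.177. Mboat7 was at 88.0 ± 17.2, 129 ± 37.3, 287 ± 44.8 and 438 ± 57.3 CPM. Of these 15 genes, Ech1 and Mboat7 also lie on chromosome 7, outside the 500 kb window, and the other 13 lie on other chromosomes.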

How the data were processed

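The authors mapped reads to mm10 with HISAT2 2.1.0, counted them per gene and strand with HTSeq and analyzed them with edgeR 3.14.0. The deposited values are raw counts per gene symbol, 1 table per sample, without normalization. Libraries had been amplified with 15 or 17 cycles, and the study's methods name no molecular identifiers. Precision from depth (2295967 to 6079866 counts) covers counting error only. Groups came from the sample labels, and the 4 replicates are separate mice.

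Counts were filtered (filterByExpr), scaled (TMM) and tested with edgeR 4.0.16 (quasi-likelihood test, Benjamini-Hochberg over all tested genes) in R 4.3.3, between genotypes within a subset and between subsets within a genotype, plus the difference of genotype effects over 16 libraries. Genes with an adjusted p under 0.05 and a fold above 1.5 were called. Alternatives used DESeq2 1.42.0, other scaling and filters, and a replicate block, which for the difference of genotype effects was the mouse. Another corrected each gene's offset for GC content and length (splines with 4 degrees of freedom). The code was tested on simulated data. The 3 genes and the gene lists were chosen with earlier results of these data known. Named are the 3 genes, Nlrp3, the 5 nearest tested neighbors on each side and the called genes of the window, all called genes of lists of up to 10 genes or the 4 of smallest p, and the 5 genes most alike. Uncalled relatives and genes ranking beside Gdpd3 were added after their values were seen. Some items that the rule names are not reported here. Of 24421 symbols, 23376 matched the annotation directly and 651 by an older symbol.

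Within a genotype, the 2 subsets with the same replicate number carry the same animal code in the sample descriptions per the labels and were taken as 1 mouse (correlation of deviations 0.01 to 0.40).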

Additional observations from a re-analysis of the deposited data

Results flagged for a closer look

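The genotype effect on Gdpd3 differed between the subsets: the log2 fold change of Nlrp3-/- over WT was 1.94 higher in G-MDSCs than in M-MDSCs (SE 0.24, edgeR quasi-likelihood model of 16 libraries). It was picked out because the difference of effects passed a test, but the gene was chosen on these same effects, so that test is no independent support and no p is given. With the mouse as a block the difference was 1.95. The levels of Gdpd3 in WT cells of the subsets overlapped, and those in Nlrp3-/- cells did not.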

How the results depend on the processing

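No value given for Gdpd3, Mapk3 or Ypel3 between genotypes changed sign in 20 alternatives per subset. With the correction for GC content and length, the log2 fold changes were 0.13 for Mapk3 in M-MDSCs and, in G-MDSCs, 0.20 for Mapk3, 4.52 for Gdpd3 and 0.19 for Ypel3. With that correction and the replicate block they were 0.11 for Mapk3 and 0.38 for Ypel3 in M-MDSCs, and 0.21 for Mapk3 and 4.53 for Gdpd3 in G-MDSCs. The number of genes past both thresholds in M-MDSCs was 1060, and 425 with the replicate block, 651 with the correction and 39 with both. In G-MDSCs it was 1522, and 985, 983 and 392. WT and Nlrp3-/- mice of the same number are different mice, and their deviations did not go together (correlations of -0.45 to 0.02), so the block there pairs nothing. Leaving out 1 library gave 450 to 1783 genes in M-MDSCs: 514, 669 and 473 without WT replicates 2, 3 and 4, and 1783, 702 and 450 without Nlrp3-/- replicates 1, 3 and 4. The cause was not tested.

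Between subsets in WT mice, Mapk3 passed at 0.49 with no fold minimum. In Nlrp3-/- mice it passed at 0.62 with DESeq2 size factors, 0.62 with DESeq2, 0.58 with no fold minimum, 0.69 in the model of 16 samples and 0.60 with the replicate block, and leaving out 1 library gave 0.46 to 0.71. The reported 0.58 lies just under the 1.5-fold minimum. Scaling by total counts turned the sign of differences that had not passed both thresholds, as given above. The blocks changed no other call of these 3 genes between subsets. Of 38 named calls of other genes, 2 held in every alternative, 36 were lost in at least 1 and 0 changed sign. Scaling by total counts moved the share of lower genes among those past both thresholds from 66.9% to 45.4% in M-MDSCs and from 71.4% to 51.9% in G-MDSCs. Precision is limited by low counts for genes such as Tbx6.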
